A study of Mus musculus with 6 samples.

Results

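MicroRNA host genes are genes whose long primary transcripts carry the hairpins of microRNAs. In the lncRNA count table of mouse lung, 12 of 6189 lncRNAs bear a host gene symbol, that is, a symbol that starts with Mir and has hg after the number, and these 12 are described here. The rule uses the name of the row and none of its values. The silicosis group holds 3 libraries (N129, N136, N138) of whole lung of C57BL/6 mice given a single intratracheal dose of 8 mg silica in 40 µL sterile saline. The control group holds 3 libraries (C7, C8, C9) of C57BL/6 lung, described in the series text as given sterile saline. Lungs of both groups were frozen after 90 days and read as total RNA. Neither the sex and age of the mice nor any further allele is given in the sources used here. A lung instilled once with silica is a model of silicosis, the scarring disease caused by inhaled crystalline silica. Whether each library is a mouse of its own is not stated in the labels, so p-values measure only the spread between these libraries, which may be technical.

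A primary microRNA transcript is cut in the nucleus by Drosha with Dgcr8, the freed hairpin is exported by Xpo5 with Ran, and a second cut gives the short duplex from which an Argonaute protein takes one strand. The mature microRNA then pairs through its seed, bases 2 to 8, with target mRNAs, which are repressed or degraded. In lung and immune cells the best known products of these hosts are miR-155 of activated macrophages and lymphocytes, miR-142 of blood cells generally, the miR-17 to miR-92 cluster of dividing cells, and the miR-99/miR-100, let-7 and miR-125b clusters of many tissues. The counts below are of host transcripts. Mature microRNAs were not measured by these tables, and a host level is not a level of its microRNA.

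The hosts were placed on the GENCODE and RefSeq annotations of GRCm38, and coordinates here are in that build, whereas the authors used the later GRCm39. GENCODE has a model for 10 of the 12. RefSeq microRNA records put 20 hairpins on the same strand within 10 hosts, 9 in exons, 9 in introns, 1 across an exon boundary and 1 in a host without a GENCODE model. The count holds no hairpin for Mir181a-1hg, which neither annotation has, or for Mir133a-1hg. That does not mean that these hosts carry none. Both hosts that the test called carry 1 microRNA in an exon. Mir155hg lies at chr16:84703167-84715245 on the plus strand with 3 exon blocks, and Mir155 is in an exon. Mir22hg lies at chr11:75461539-75466676 on the plus strand, also with 3 exon blocks and Mir22 in an exon. Their hairpins are shown in full because the 2 arms, in capitals, are the parts that become mature microRNAs. Mir155 spans chr16:84714140-84714204 and Mir22 spans chr11:75463716-75463810, both on the plus strand.
Mir155 hairpin: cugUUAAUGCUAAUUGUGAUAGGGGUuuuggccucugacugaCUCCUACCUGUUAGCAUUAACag
Mir22 hairpin: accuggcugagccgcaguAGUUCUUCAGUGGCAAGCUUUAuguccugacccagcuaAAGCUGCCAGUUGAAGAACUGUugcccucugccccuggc

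Mature RNAs of some of the hosts, with the seed in capitals, show part of what they can deliver. From the called hosts come miR-155-5p, miR-155-3p, miR-22-5p and miR-22-3p, which share no seed with each other or with any other listed microRNA of these hosts.
miR-155-5p: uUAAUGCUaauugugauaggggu
miR-155-3p: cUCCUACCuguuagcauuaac
miR-22-5p: aGUUCUUCaguggcaagcuuua
miR-22-3p: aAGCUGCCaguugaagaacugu
Mir17hg holds 6 microRNAs in 1 exon, shown because they fall into seed families. miR-17-5p and miR-20a-5p share the seed AAAGUGC and differ by C1U and C12U, counting from 1 at the 5′ end of miR-17-5p. miR-19a-3p and miR-19b-3p share GUGCAAA and differ by U11C. miR-18a-5p and miR-92a-3p have seeds of their own.
miR-17-5p: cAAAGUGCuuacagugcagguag
miR-20a-5p: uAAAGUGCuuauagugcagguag
miR-18a-5p: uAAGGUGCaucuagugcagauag
miR-19a-3p: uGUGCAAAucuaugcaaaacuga
miR-19b-3p: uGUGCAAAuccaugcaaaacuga
miR-92a-3p: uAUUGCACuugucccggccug
Mir100hg and Mir99ahg are paralogous hosts that each hold a miR-99 family member, a let-7 and a miR-125b in introns. miR-100-5p and miR-99a-5p share the seed ACCCGUA and differ only by A16U over 22 bases, and miR-125b-5p is encoded in both hosts with the same letters. The let-7c-5p shown is of Mir99ahg. Of the let-7 in Mir100hg the records used here hold only the arm let-7a-2-3p, which is not shown.
miR-100-5p: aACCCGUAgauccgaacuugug
miR-99a-5p: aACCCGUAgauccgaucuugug
miR-125b-5p: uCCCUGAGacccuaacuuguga
let-7c-5p: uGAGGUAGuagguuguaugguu
Mir142hg holds Mir142 in an intron, and both of its arms are used in blood cells.
miR-142a-5p: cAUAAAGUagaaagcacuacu
miR-142a-3p: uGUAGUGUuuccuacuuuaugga

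**Figure D1:**
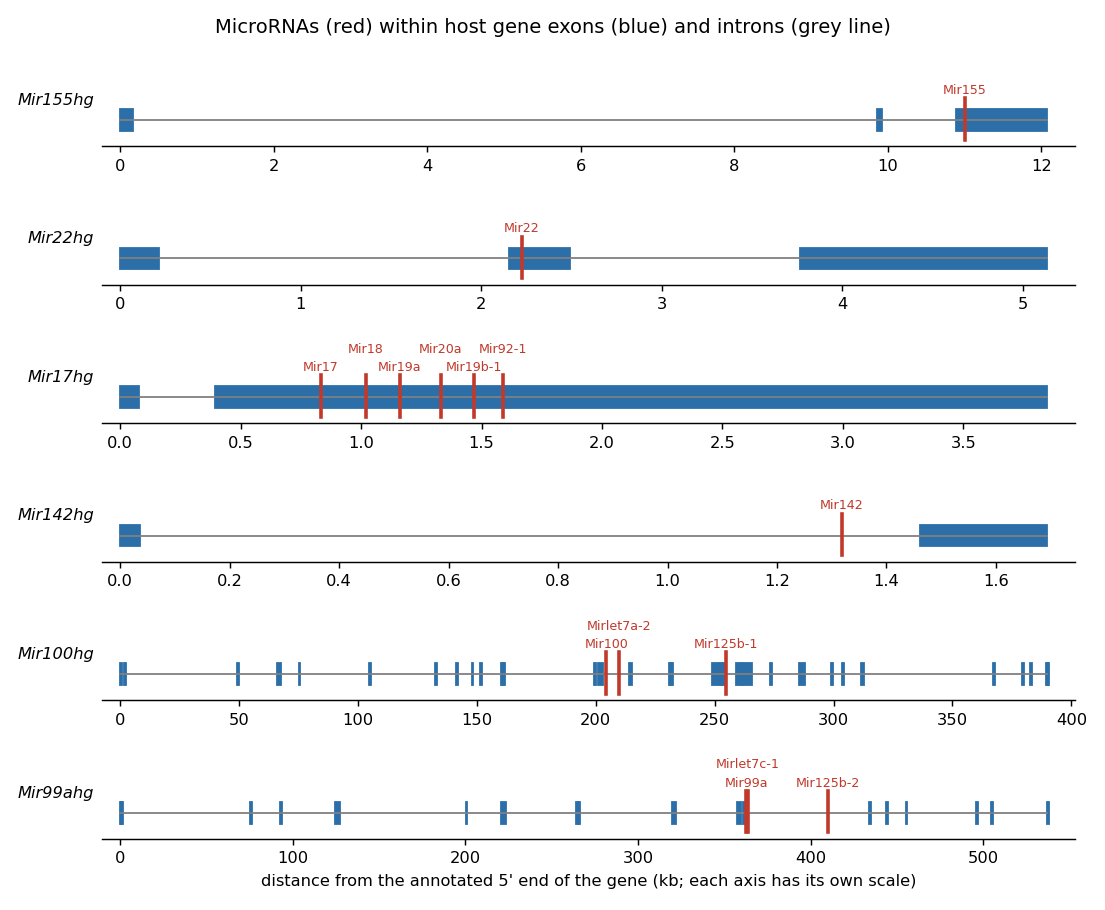
Maps of 6 host genes on GENCODE models of GRCm38, with exons in blue, introns as a grey line and same-strand microRNAs in red; the horizontal axis is the distance from the annotated 5′ end in kb, on a separate scale for each gene. Mir155, Mir22 and the 6 microRNAs of Mir17hg lie in exons, and the microRNAs of Mir142hg, Mir100hg and Mir99ahg in introns.

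The libraries held 929132 to 1326986 lncRNA counts each, of which Malat1, an abundant nuclear lncRNA, took 47.9% to 55.6% in silicosis and 50.4% to 58.1% in control. The 12 hosts together took 0.298% (95% Wilson interval 0.288% to 0.308%), 0.33% (0.319% to 0.342%) and 0.35% (0.34% to 0.36%) in N129, N136 and N138, against 0.262% (0.254% to 0.271%), 0.26% (0.251% to 0.27%) and 0.317% (0.306% to 0.329%) in C7, C8 and C9. The ranges overlapped, and the intervals cover counting error only. N138 had the most lncRNA counts per 100 mRNA counts, 3.94, and N136 the fewest, 2.12, against 2.38 to 3.12 in control. For this reason each host was scaled to the lncRNA total of its library (CPM, counts per 1000000 lncRNA counts after TMM adjustment) and, beside it, to the mRNA total. The lung markers Sftpc, Scgb1a1, Ager and Cdh5 were present in all 6 libraries, with a summed level of 14210 to 16980 CPM of mRNA counts in silicosis and 20880 to 28950 in control.

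Of the 12 hosts, 9 passed the filter on low counts. Mir155hg and Mir22hg were higher in silicosis, 0 were lower and 7 were not called at an adjusted p under 0.05 (edgeR quasi-likelihood F test, Benjamini-Hochberg over 3320 lncRNAs). Over all tested lncRNAs 5.78% were called, 3.28% higher and 2.5% lower. With 9 hosts tested, each one weighs heavily in such a share, and nothing is read from it. Scaled to mRNA totals, 1 host, Mir155hg, was called higher and 0 lower, where 2.92% of all lncRNAs were called, 2.2% higher and 0.723% lower. That scaling moved the median log2 fold change of all lncRNAs to 0.11, against 0.02 on lncRNA totals, and the median of the 9 hosts to 0.35, against 0.24. Of the called lncRNAs, 75.3% were higher on mRNA totals and 56.8% on lncRNA totals. On both scales 7 of 9 hosts had a fold change above 0. The 2 called hosts were also those with an unadjusted p under 0.05.

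**Figure D2:**
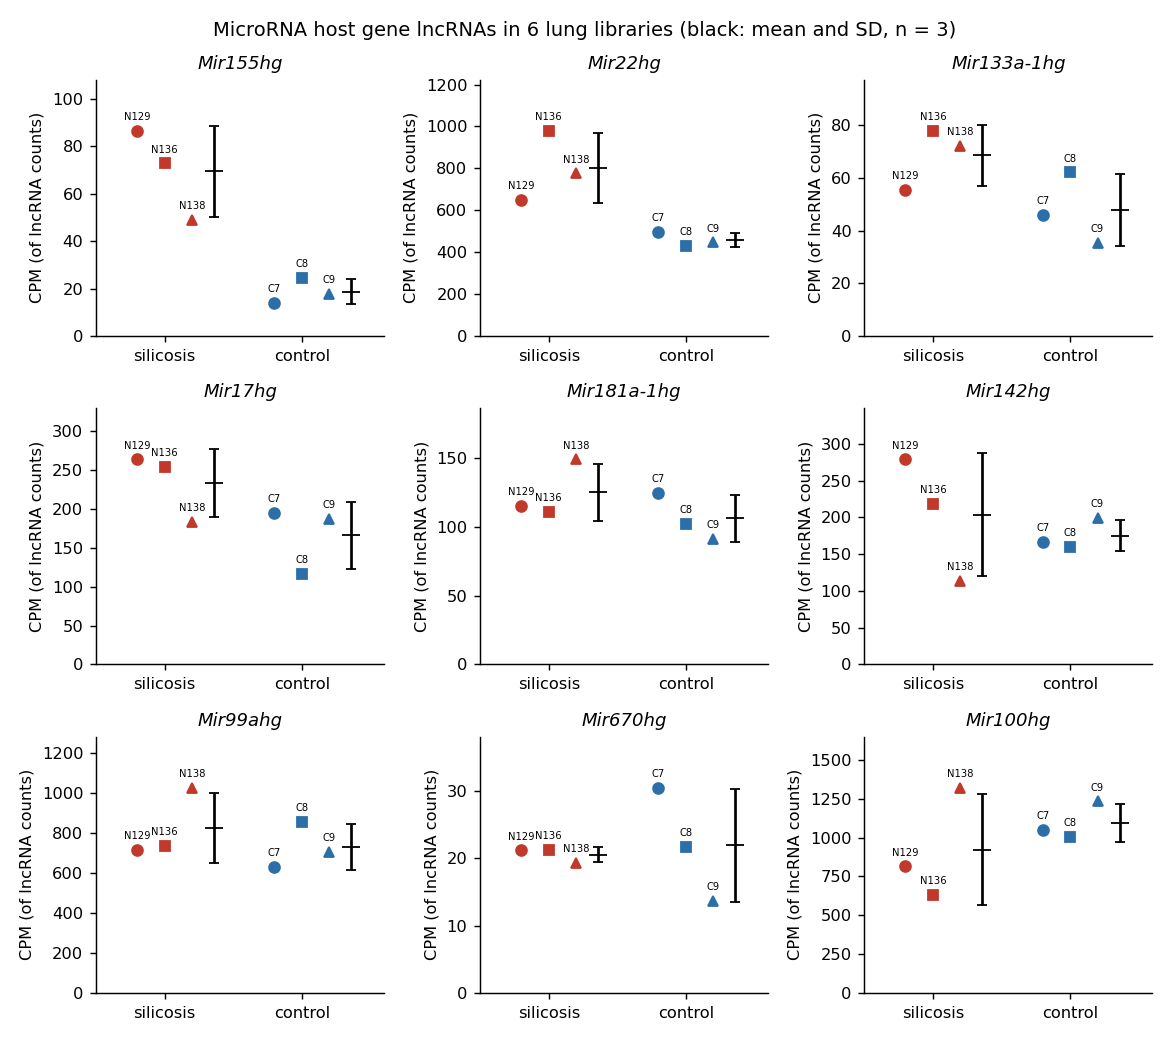
CPM of lncRNA counts of the 9 hosts that passed the filter, one point per library with silicosis left and control right, and the mean with its SD (n = 3) in black. The silicosis points lie above all control points for Mir155hg (48.9 to 86.5 against 13.99 to 24.6) and Mir22hg (650 to 978 against 432 to 498), and the groups overlap in the other panels.

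Mir155hg, the host of miR-155 once known as the B cell integration cluster, had the largest fold change of the 9 hosts. It had 98, 72 and 61 counts in N129, N136 and N138, against 17, 25 and 18 in C7, C8 and C9. These are 86.5, 72.8 and 48.9 CPM in silicosis and 13.99, 24.6 and 17.6 CPM in control. The groups did not overlap, and N138, the lowest silicosis library, was still above C8, the highest control library. Over all tested lncRNAs, 24% did not overlap between the groups and 12.6% did so with silicosis higher. The means were 69.4 ± 18.99 CPM in silicosis and 18.8 ± 5.41 CPM in control (SD, n = 3 each), a 3.70-fold difference (95% interval 2.17 to 6.29; log2 fold change 1.89, SE 0.36, edgeR adjusted p = 0.00522). Scaled to mRNA totals, Mir155hg had 2.56, 1.65 and 1.70 counts per 1000000 mRNA counts in N129, N136 and N138, against 0.422, 0.598 and 0.470 in C7, C8 and C9. The log2 fold change was then 1.98 (SE 0.40, edgeR adjusted p = 0.00885). The call ended without N129, at a log2 fold change of 1.67 and an edgeR adjusted p of 0.0507; over the 12 alternatives the adjusted p ran between 0.000177 and 0.0507. The authors' deposited table gives Mir155hg a log2 fold change of 1.88 with an adjusted p of 0.000749.

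Mir22hg, the host of miR-22, a widely expressed microRNA studied most in heart and muscle, was the other called host. It had 737, 968 and 967 counts in N129, N136 and N138, against 605, 438 and 456 in C7, C8 and C9. Scaled to lncRNA totals these are 650, 978 and 776 CPM in silicosis and 498, 432 and 447 CPM in control, with no overlap. On this scale the silicosis libraries spread far more than the control libraries, with means of 801 ± 166 CPM in silicosis and 459 ± 34.7 CPM in control (SD, n = 3 each). The difference was 1.75-fold (log2 fold change 0.80, SE 0.21, 95% interval 0.37 to 1.24, edgeR adjusted p = 0.0281). Scaled to mRNA totals, Mir22hg had 19.2, 22.2 and 26.9 counts per 1000000 mRNA counts in silicosis and 15.0, 10.5 and 11.9 in control. The gap in spread was smaller there, with means of 22.8 ± 3.87 in silicosis and 12.5 ± 2.33 in control (SD, n = 3 each). The groups again did not overlap and the fold change was no smaller (log2 0.87, SE 0.26), but the edgeR adjusted p was 0.0776 and the call ended. It also ended without C7 (edgeR adjusted p = 0.0733), C8 (0.155), C9 (0.124), N129 (0.059) or N136 (0.0931). The authors' deposited table gives Mir22hg a log2 fold change of 0.79 with an adjusted p of 0.00324. The neighbouring coding gene Tlcd2, on the same strand, shares 206 exon bases with Mir22hg, 10.7% of the exons of Mir22hg, and reads there cannot be assigned to one gene. Tlcd2, looked up for this overlap, had 121, 139 and 96 counts in the mRNA table in silicosis and 124, 164 and 143 in control (log2 fold change -0.25, SE 0.22, edgeR adjusted p = 0.415). It was not called.

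**Figure D3:**
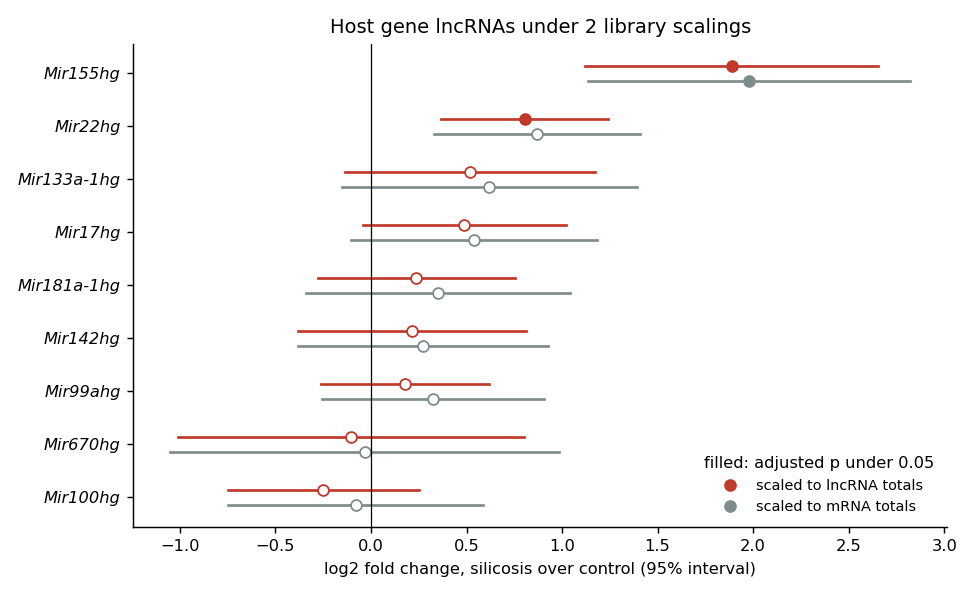
Log2 fold change of each host, silicosis over control, with its 95% interval, scaled to lncRNA totals (red) and to mRNA totals (grey); filled points have an edgeR adjusted p under 0.05. Mir155hg is filled on both scales, Mir22hg only on lncRNA totals, and the intervals of the other 7 hosts include 0.

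The bulk lung also changed in its cell markers, and in bulk RNA more cells of a type and more RNA per cell cannot be told apart. Over all 15808 tested mRNAs, 15.3% were called higher and 16.5% lower, a share that stands beside every count of called markers here and further below. Macrophage and monocyte markers summed to 5796 to 10610 CPM in silicosis and 3217 to 3814 CPM in control, with 7 of 8 called higher. In both groups this sum was mostly Lyz2, at 6595 ± 2413 CPM in silicosis and 2977 ± 314 CPM in control (SD, n = 3 each). B and plasma cell markers summed to 241 to 999 CPM in silicosis and 104 to 143 CPM in control, with 2 of 4 called higher, namely Jchain and Mzb1. In silicosis the sum was mostly Jchain, which joins secreted antibodies and was singled out after its values were seen. It averaged 485 ± 367 CPM in silicosis and 29.8 ± 11.1 CPM in control (SD, n = 3 each), while the other 3 summed to 56.8 to 133 CPM in silicosis and 69.3 to 112 CPM in control, with Cd79a (log2 fold change -0.47) and Ms4a1 (0.66) not called. Neutrophil markers summed to 229 to 357 CPM in silicosis and 84.0 to 149 CPM in control, with 3 of 5 called higher. T and NK cell markers summed to 45.4 to 109 CPM in silicosis and 75.7 to 106 CPM in control, with 0 of 6 called higher and 2 lower. No marker of these lists was at 0 in all libraries. The mean of the summed markers in silicosis over that in control, on mRNA totals, was 2.20 for macrophages, 4.91 for B and plasma cells (1.11 without Jchain), 2.24 for neutrophils and 0.883 for T and NK cells. Beside these stand the edgeR fold differences of Mir155hg, 3.70 on lncRNA totals and 3.94 on mRNA totals. Those of Mir22hg were 1.75 on lncRNA totals and 1.83 on mRNA totals, where it was not called. The part of these cells in the host levels was not tested.

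Mir142hg and Mir17hg, the hosts most tied to blood cells and to cell division, were not called. Mir142hg had 279, 218 and 114 CPM in N129, N136 and N138, against 167, 160 and 199 CPM in C7, C8 and C9. The silicosis libraries fell on both sides of the control range, with means of 204 ± 83.4 CPM in silicosis and 175 ± 20.8 CPM in control (SD, n = 3 each; log2 fold change 0.22, SE 0.28, 95% interval -0.38 to 0.81, edgeR adjusted p = 0.748). Mir17hg had 264, 254 and 183 CPM in N129, N136 and N138, against 195, 116 and 187 CPM in C7, C8 and C9. N138 lay within the control range and the other silicosis libraries above it (log2 fold change 0.49, SE 0.25, 95% interval -0.04 to 1.02, edgeR adjusted p = 0.312). On lncRNA totals Mir155hg, Mir142hg and Mir17hg all had their highest silicosis level in N129 and their lowest in N138. On mRNA totals N129 was again highest, but Mir155hg and Mir17hg were lowest in N136, with 7.80, 5.76 and 6.34 counts per 1000000 mRNA counts of Mir17hg in N129, N136 and N138. Summed T and NK cell markers were 109, 73.6 and 45.4 CPM in N129, N136 and N138, and summed proliferation markers 177, 179 and 78.8 CPM. Both were scaled to mRNA totals and lowest in N138. Among the silicosis libraries N138 was also lowest for summed macrophage, B and plasma cell, endothelium, alveolar type 1 and alveolar type 2 markers. It was highest for neutrophil, resting fibroblast, smooth muscle and heart and skeletal muscle markers. A low in N138 was thus not particular to T and NK cell or proliferation markers. The macrophage sum was mostly Lyz2, with 5460, 9366 and 4960 CPM in N129, N136 and N138. Ctss, Cd14 and Marco were also lowest in N138, but Cd68, Adgre1, Csf1r and Itgam were lowest in N129. Proliferation markers summed to 99.6 to 125 CPM in control, and 1 of 4 was called higher. With 3 libraries per group these shared orders are a description only, and the part of the markers in them was not tested.

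**Figure D4:**
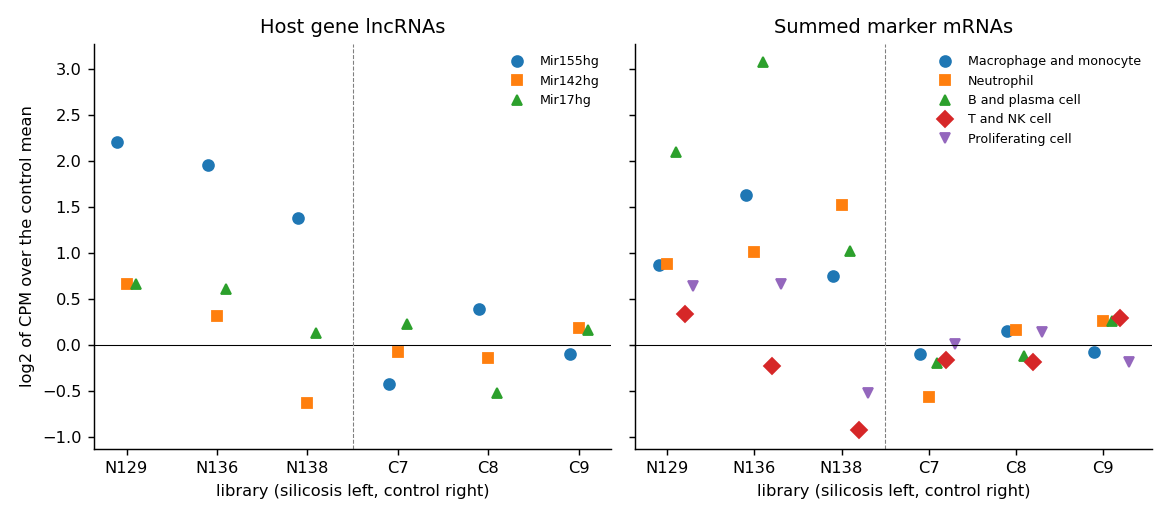
Level of 3 host genes (left, CPM of lncRNA counts) and of 5 summed marker lists (right, CPM of mRNA counts) in each library, as log2 of the level over the control mean, with silicosis libraries left and control libraries right of the dashed line. Mir155hg stands above all control libraries in N129, N136 and N138. On these scales the 3 hosts and every marker sum shown except neutrophil are lowest in N138 among the silicosis libraries. The macrophage sum is mostly Lyz2.

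Mir100hg and Mir99ahg, the long paralogous hosts of the miR-99, let-7 and miR-125b clusters, had the most counts with Mir22hg. Mir100hg made up 28.7% of the counts of the 12 hosts in silicosis and 38.7% in control, Mir99ahg 25.3% in silicosis and 25.6% in control, and Mir22hg 24.0% in silicosis and 16.3% in control. Mir100hg had 814, 630 and 1320 CPM in N129, N136 and N138, against 1051, 1002 and 1233 CPM in C7, C8 and C9. N129 and N136 lay below all control libraries and N138 above them, and the host was not called (log2 fold change -0.25, SE 0.24, 95% interval -0.75 to 0.25, edgeR adjusted p = 0.632). Mir99ahg had 713, 734 and 1024 CPM in N129, N136 and N138, against 631, 853 and 702 CPM in C7, C8 and C9 (log2 fold change 0.18, SE 0.21, 95% interval -0.26 to 0.62, edgeR adjusted p = 0.716). N138 was highest for both paralogues, and its 3.94 lncRNA counts per 100 mRNA counts were also the highest. On mRNA totals the gap was wider, with 24.1, 14.3 and 45.8 counts per 1000000 mRNA counts of Mir100hg in N129, N136 and N138, against 31.7, 24.3 and 32.9 in C7, C8 and C9. Resting fibroblast markers, of which 4 of 4 were called lower, summed to 930, 730 and 1082 CPM in N129, N136 and N138, also highest in N138, against 2311 to 2391 CPM in control. Smooth muscle markers (423, 406 and 440 CPM) and heart and skeletal muscle markers (147, 126 and 225 CPM) had the same order. Neutrophil and basal and squamous epithelium markers were also highest in N138, so the peak was not particular to fibroblast markers. The part of any of these markers in the host levels was not tested.

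The other 3 tested hosts were not called either. Mir181a-1hg, the host of a microRNA that tunes T cell receptor signals, had 116, 111 and 149 CPM in N129, N136 and N138, against 125, 103 and 91.1 CPM in C7, C8 and C9 (log2 fold change 0.24, SE 0.24, edgeR adjusted p = 0.659). Mir133a-1hg, the host of a microRNA of heart and skeletal muscle, had 55.6, 77.8 and 72.2 CPM in silicosis and 46.1, 62.1 and 35.3 CPM in control. The groups overlapped on lncRNA totals through N129 and C8, and did not overlap on mRNA totals, where 19.7% of all lncRNAs did not overlap and 12.1% did so with silicosis higher. It was called on neither scale, with a log2 fold change of 0.52 (SE 0.31) and an edgeR adjusted p of 0.388 on lncRNA totals and of 0.480 on mRNA totals. Heart and skeletal muscle markers summed to 126 to 225 CPM in silicosis and 115 to 326 CPM in control, with 1 of 6 called higher and 0 lower. That member was Acta1, the skeletal muscle actin, with 0.365, 37.9 and 73.1 CPM in N129, N136 and N138, against 0.149, 0.192 and 0.104 CPM in C7, C8 and C9. Like Mir133a-1hg it was higher in N136 and N138 than in N129. Of the same list, Myh6, Tnnt2 and Myl7 were highest in N129 among the silicosis libraries, and Actc1 was lowest in N136. Ckm, the muscle creatine kinase, had 1.23, 4.84 and 11.8 CPM in silicosis and 0.894, 0.814 and 2.92 CPM in control and was not called (log2 fold change 1.95, edgeR adjusted p = 0.0782), nor were the heart genes Myh6, Actc1 and Tnnt2 (-0.65, -0.63 and -0.77). Acta1 and Ckm are given in full because of these values, and the part of muscle in the level of Mir133a-1hg was not tested. Mir133a-1hg lies opposite to the coding gene Mib1 and shares 0 exon bases with it. Mir670hg had 21.2, 21.2 and 19.3 CPM in silicosis, a narrow band, against 30.5, 21.7 and 13.7 CPM in control (log2 fold change -0.10, SE 0.43, edgeR adjusted p = 0.936). The 95% interval of Mir670hg, -1.01 to 0.80, shows how little its 14 to 37 counts per library can tell.

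The 3 hosts that did not pass the filter are known from other tissues. Mir205hg, of stratified and glandular epithelium, had 10, 3 and 12 counts in N129, N136 and N138, against 18, 2 and 8 in C7, C8 and C9. Its count ratio on lncRNA totals was 0.861, with a 95% counting interval of 0.482 to 1.53, while the basal and squamous epithelium markers Krt5, Krt14 and Trp63, all 3 called higher, summed to 5.39 to 11.3 CPM in silicosis and 0.497 to 0.981 CPM in control. Mir9-3hg, of the nervous system, had 2, 0 and 3 counts in silicosis and 2, 0 and 0 in control. Mir217hg, of the pancreas, had 2, 0 and 2 counts in silicosis and 0, 3 and 0 in control. At these counts no difference could be detected.

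Levels between hosts were compared per kb of exon. Mir142hg, whose GENCODE exons add up to only 269 bases, had 757 CPM per kb in silicosis and 651 in control, and Mir22hg 417 in silicosis and 238 in control. Mir133a-1hg had 173 CPM per kb in silicosis and 121 in control. The other hosts with a model were lower, among them Mir17hg with 66.0 in silicosis and 47.0 in control, Mir99ahg with 57.6 in silicosis and 50.9 in control, and Mir100hg with 38.6 in silicosis and 45.8 in control. Mir155hg had 48.4 CPM per kb in silicosis and 13.1 in control. Lengths are of all annotated exons joined, 23898 bases for Mir100hg, 14303 for Mir99ahg and 1433 for Mir155hg. Their longest transcripts have 4244, 3422 and 1362 bases. The places of Mir100hg and Mir99ahg among the hosts therefore hang on this choice of length. Lengths are from GRCm38 and may differ from the models that were counted.

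Targets known for miR-155 moved in both directions. Of 7 listed targets, 2 were called higher, 1 lower and 4 not called, beside 15.3% called higher and 16.5% lower, 31.8% in all, of 15808 tested mRNAs, and their median log2 fold change was 0.07, against 0.03 for all mRNAs. Bach1, a repressor of haem oxygenase, had 151, 184 and 168 CPM of mRNA counts in silicosis and 130.3, 135.7 and 113.9 CPM in control (log2 fold change 0.41, SE 0.11, edgeR adjusted p = 0.0189). Cebpb, a transcription factor of myeloid cells, had 109, 101 and 87.1 CPM in silicosis and 83.4, 74.8 and 65.1 CPM in control (log2 fold change 0.41, SE 0.12, edgeR adjusted p = 0.0295). Both calls ended under some alternative, with adjusted p up to 0.0622 for Bach1 and 0.109 for Cebpb. The member that was lower, Maf, a transcription factor of macrophages and T helper cells, had 46.1, 41.9 and 48.8 CPM in silicosis and 61.0, 62.2 and 56.0 CPM in control (log2 fold change -0.39, SE 0.10, edgeR adjusted p = 0.0153, up to 0.0626 under the alternatives). Socs1, a brake on cytokine signalling, had a log2 fold change of 0.17, and Inpp5d (the phosphatase SHIP1), Spi1 (the factor PU.1) and Jarid2 had 0.05, 0.07 and 0.02, none of them called. The 3 listed targets of miR-22 were not called either. Their log2 fold changes were 0.05 for Hdac4, 0.05 for Sirt1 and 0.19 for Purb, with edgeR adjusted p between 0.337 and 0.780.

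The target counts that follow stand beside 15.3% called higher and 16.5% lower, 31.8% in all, of 15808 tested mRNAs. With lists this small nothing is read from the counts. Among targets of microRNAs whose hosts were not called, 3 of 7 for the miR-17 to miR-92 cluster were higher and 0 lower, with the matricellular protein Thbs1 at 517 ± 31.6 CPM in silicosis and 264 ± 23.9 CPM in control (SD, n = 3 each; log2 fold change 0.97, SE 0.10, edgeR adjusted p = 0.00024). The cell cycle inhibitor Cdkn1a and the death inducer Bcl2l11 were the others, with log2 fold changes of 0.90 and 0.33. The call of Bcl2l11 ended without C7, C8, C9, N129 or N138 (edgeR adjusted p between 0.0627 and 0.095). Of 4 listed targets of miR-142, the cytokine Il6 (2.70) and the integrin Itgav (0.56) were higher and the adenylyl cyclase Adcy9 (-0.45) lower on the log2 scale, and the call of Adcy9 ended without C7 (edgeR adjusted p = 0.0574). Of 4 tested targets of let-7, miR-99 and miR-125b, Tnfaip3, a brake on NF-kB, was higher (1.85) and the growth factor receptor Igf1r lower (-0.52). In the smaller lists the phosphatase Dusp5 (0.95) was higher as 1 of 3 for miR-181a, the muscle factor Srf (-0.60) lower as 1 of 3 for miR-1 and miR-133a, and the repressor Zeb1 (-0.81) lower as 1 of 2 for miR-205. Of 2 for miR-9, 0 were called, and Rest, the more abundant, had a log2 fold change of -0.02. Lists were also kept for miR-34a and miR-124, which were not found in any of the 12 hosts. Of 5 for miR-34a, Met was higher (0.83) and Notch1 lower (-0.48), and of 3 for miR-124 all were lower, with log2 fold changes of -0.62 for Ctdsp1, -0.49 for Ptbp1 and -0.42 for Rhog. The call of Ptbp1 ended without C9 or N138 (edgeR adjusted p = 0.0645 and 0.0603).

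Of 25 listed genes that process or use microRNAs, 23 were in the mRNA table, and the other 2 were not analysed here. Of the 23, 2 were higher, 4 lower and 17 not called, with a median log2 fold change of 0.03, beside 15.3% higher and 16.5% lower, 31.8% in all, of all mRNAs. Zc3h12a (Regnase-1), an endonuclease that cuts inflammatory mRNAs and microRNA precursors, had 50.6, 46.3 and 39.6 CPM in silicosis and 23.9, 18.9 and 20.8 CPM in control. Its log2 fold change was 1.10 (SE 0.13, edgeR adjusted p = 0.000455). Ran, the export GTPase, averaged 124 ± 21.8 CPM in silicosis and 74.0 ± 13.97 CPM in control (SD, n = 3 each; log2 fold change 0.74, SE 0.17, edgeR adjusted p = 0.00922). The Argonaute Ago1 averaged 156 ± 2.22 CPM in silicosis and 206 ± 9.86 CPM in control (SD, n = 3 each; log2 fold change -0.41, SE 0.08, edgeR adjusted p = 0.00591). The silencing scaffolds Tnrc6b and Tnrc6c had log2 fold changes of -0.39 and -0.47, and Drosha, which makes the first cut, of -0.36 (SE 0.09, edgeR adjusted p = 0.0167). Ago2, the Argonaute that can itself cut target RNA, was not called, at 319 ± 14.5 CPM in silicosis and 280 ± 14.9 CPM in control (SD, n = 3 each; log2 fold change 0.19, edgeR adjusted p = 0.135).

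Genes outside the 12 also carry microRNAs. Of 37 coding hosts, 12 were lower, 2 higher and 23 not called, beside 16.5% lower, 15.3% higher and 31.8% called in all of all mRNAs, and their median log2 fold change was -0.11, against 0.03. Slit3, the guidance ligand that hosts miR-218, averaged 90.3 ± 22.5 CPM in silicosis and 191 ± 12.1 CPM in control (SD, n = 3 each; log2 fold change -1.08, SE 0.16, edgeR adjusted p = 0.0013). The phosphatase genes Ctdsp1 and Ctdspl, hosts of miR-26 genes, had log2 fold changes of -0.62 and -0.64. Of 8 lncRNAs that carry microRNAs under another name, 1 was higher and 1 lower, beside 3.28% higher and 2.5% lower of all tested lncRNAs. Carmn, the smooth muscle host of miR-143 and miR-145, had 585, 682 and 832 CPM of lncRNA counts in silicosis and 1575, 1330 and 1440 CPM in control (log2 fold change -1.05, SE 0.19, edgeR adjusted p = 0.00429). On mRNA totals the call ended, at an adjusted p of 0.0669. Smooth muscle markers, 3 of 5 called lower, summed to 406 to 440 CPM in silicosis and 589 to 791 CPM in control, and the 5 listed targets of miR-143 and miR-145 were all lower as well, with log2 fold changes of -0.98 for Ace, -0.54 for Add3 and -0.71 for Klf5. Endothelium markers, 4 of 5 called lower, summed to 1767 to 1951 CPM in silicosis and 3405 to 3824 CPM in control. The part of either cell type in Carmn or in these targets was not tested. H19, the imprinted fetal host of miR-675, had 31.8, 179 and 435 CPM in N129, N136 and N138, against 32.1, 46.3 and 58.8 CPM in C7, C8 and C9. The groups overlapped through N129 (log2 fold change 2.24, SE 0.57, edgeR adjusted p = 0.0273). The call ended without N138, at 1.19 with an adjusted p of 0.131, without any control library, with DESeq2 (0.155) and with limma-voom (0.213). The skeletal muscle genes Acta1 and Ckm, whose levels are given above, had the same order as H19 over N129, N136 and N138. Myh6, Actc1, Tnnt2 and Myl7 of the same list did not, and were lowest in N136. Nor was the order particular to muscle, since Carmn and the summed neutrophil markers (229, 251 and 357 CPM) had it too. The part of Acta1 and Ckm in the level of H19 was not tested.

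**Figure D5:**
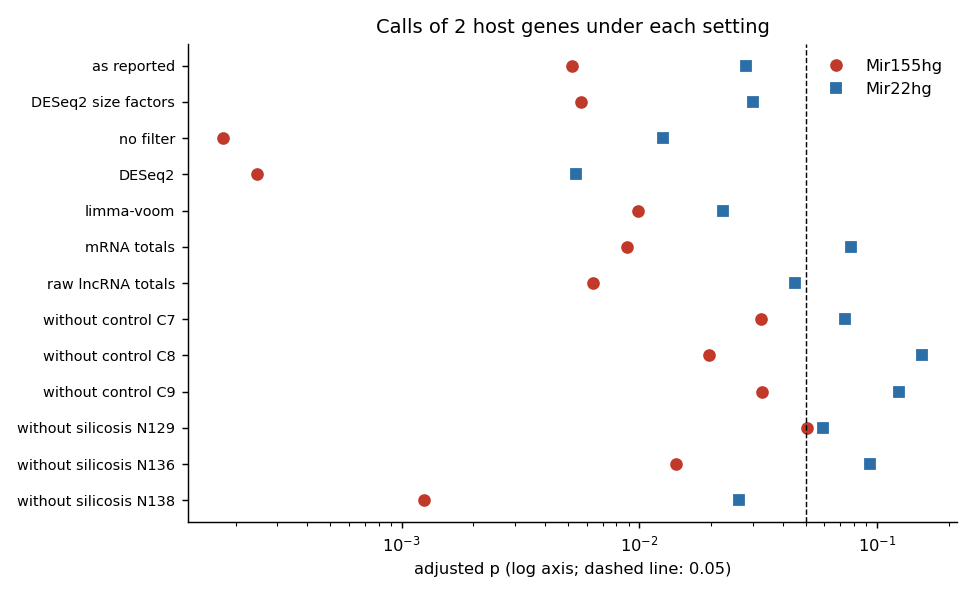
Adjusted p of Mir155hg (red circles) and Mir22hg (blue squares) as reported and under each of the 12 alternatives, on a log axis with a dashed line at 0.05. Among these settings Mir155hg lies past the line without N129 alone (0.0507), and Mir22hg lies past it on mRNA totals and without C7, C8, C9, N129 or N136.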

How the data were processed

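Total RNA of 6 lung libraries was grouped by the treatment in the labels. Per the submitters' processing notes, the build was GRCm39 and the tools, listed without roles, included featureCounts 2.0.0, DESeq2 1.36.0, HISAT2, Bowtie2 and Trimmomatic 0.39. The annotation and the strand setting of the counting are not given there. Without strand, reads in exons that a host shares with an antisense neighbour cannot be assigned to one of them. The deposited tables hold raw read counts per gene and library, made by the authors, for 6189 lncRNAs and 17973 mRNAs. A further deposited table holds the authors' own log2 fold change of silicosis over control for each lncRNA, with its p-value and adjusted p-value.

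Each count table was fitted with edgeR 4.0.16 in R 4.3.3 (filterByExpr, TMM, two-sided quasi-likelihood F test, Benjamini-Hochberg, threshold 0.05), keeping 3320 lncRNAs (99.1% of counts) and 15808 mRNAs. The SE is the log2 fold change over the square root of F. CPM are relative to 1000000 adjusted counts of the same table; in a second scaling lncRNAs were set against adjusted mRNA totals. The smallest two-sided p of an exact permutation between these groups is 0.1, so none was used. Libraries of a group differed by more than sampling noise.

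Every tested host is named, and of each list the 3 called genes with the lowest p, with further genes where a count was small. Some listed genes are not reported here. Members, lists and markers were chosen with earlier results of these data known. As alternatives, lncRNAs were scaled to raw lncRNA totals or mRNA totals, and both tables were fitted with voom of limma 3.58.1, with DESeq2 1.42.0, with its size factors in edgeR, without a filter, and with each library left out; called hosts were also counted at a fold of at least 2. On simulated counts, 19% of 100 lncRNAs changed 2-fold and 81% of 100 changed 4-fold were recovered over 3320 lncRNAs, and 71% and 97% over 15808 mRNAs. Windows of 50 bases of GENCODE transcripts shared with other genes were at most 9.09% (Mir22hg, with Mir22 and Tlcd2). Promoters are not shown: the RefSeq start of Mir155hg lies 9856 bases inside the GENCODE gene and that of Mir17hg 1511 bases. Sequences are RefSeq's for GRCm38.p6.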

Additional observations from a re-analysis of the deposited data

How the results depend on the processing

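The 2 called hosts were also called with DESeq2 size factors, with no filter, with DESeq2, with limma-voom and on raw lncRNA totals. On mRNA totals 1 host was called, and with a minimum of 2-fold 1. Leaving out 1 library gave 0 to 2 called hosts, with 0 only without N129. Over all lncRNAs, 192 calls became 97 on mRNA totals, 287 with no filter, and between 69 (without N129) and 247 (without N138) with 1 library left out. The cause of these changes was not tested. Fits with 1 library left out also rest on fewer libraries. Among hosts that were not called, the log2 fold change with 1 library left out ran between -0.38 and 0.20 for Mir670hg (turning without C7), -0.10 and 0.50 for Mir142hg (without N129) and -0.02 and 0.29 for Mir99ahg (without N138). Among uncalled targets it ran between -0.07 and 0.18 for Spi1 (turning without C7 or N136), -0.03 and 0.09 for Jarid2 (without C7, C8 or N138), -0.02 and 0.15 for Sirt1 (without C9), -0.10 and 0.02 for Rest (without N138, and 0.00 without N129) and -0.12 and 0.30 for Socs1 (without N129). No paired analysis was possible because the groups share no replicate numbers. On simulated lncRNA counts, 81% of 4-fold but 19% of 2-fold changes were recovered, and the part of depth in this was not tested.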

Other observations

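Besides the host genes, 3 lncRNA symbols start with Mir without being named as a host of the numbered kind, and they were looked up after the hosts had been seen. Mirt1 and Mirt2, named after their rise in infarcted heart tissue, were both called higher. Mirt1 had 726, 797 and 568 CPM in N129, N136 and N138, against 323, 300 and 395 CPM in C7, C8 and C9, with no overlap (log2 fold change 1.04, SE 0.21; the edgeR adjusted p was 0.00698 on lncRNA totals and 0.0211 on mRNA totals). Mirt2 had 52.9, 87.9 and 62.6 CPM in silicosis, against 4.94, 22.7 and 34.3 CPM in control, again with no overlap (log2 fold change 1.73, SE 0.47; the edgeR adjusted p was 0.038 on lncRNA totals and 0.0443 on mRNA totals). Mirg, a lncRNA of the imprinted cluster that also holds Meg3 and Rian, was not called, with a log2 fold change of -0.41 (SE 0.41).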
